A study of Mus musculus with 16 samples.

Results

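The genes described here encode the collagens, the laminins and the enzymes and inhibitors that remodel the extracellular matrix, measured in libraries of sorted mouse spermatogonia. They were picked out by symbol, with earlier results of these data known. The set takes every numbered collagen chain (Col followed by the chain name), every laminin chain (Lama, Lamb, Lamc), every numbered matrix metalloproteinase (Mmp), Timp1 to Timp4, and the single genes Nid1, Nid2, Fn1 and Sparc. This gave 72 of the 16383 genes in the table. Of these, 49 reached at least 1 FPKM in at least 4 of the 16 libraries and were tested, and 23 did not. FPKM scales the fragments counted for a gene by its length in kilobases and by the size of the library, so levels can be compared between genes.

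Collagens are built from 3 alpha chains wound into a triple helix. Fibrillar collagens (types I, III and V among those measured) form the fibrils of connective tissue, and type IV collagen forms the sheet of basement membranes together with laminins, nidogens and perlecan. A laminin is a cross-shaped trimer of 1 alpha, 1 beta and 1 gamma chain. Matrix metalloproteinases cut these proteins, and the tissue inhibitors of metalloproteinases (TIMPs) block them. In the testis, spermatogonia rest on the basement membrane of the seminiferous tubule, to which Sertoli cells on the inside and contractile peritubular myoid cells on the outside contribute. Acta2 encodes smooth muscle actin, a protein of peritubular myoid cells and of the smooth muscle of vessels.

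Adult mice, all of which had received busulfan at 10 mg/kg, gave undifferentiated spermatogonia by flow sorting on day 10. Busulfan is an alkylating agent that depletes germ cells of the testis. Daily injections for 7 days, begun on day 3, held either 2.5 mg/kg of PD0325901, which blocks the kinase MEK and so the activation of ERK, or vehicle (10% DMSO in PBS). The genotypes were wild type and germline knockout of Spry4, a gene whose protein damps signals of receptor tyrosine kinases, and each gave 4 polyA RNA libraries on vehicle and 4 on inhibitor. The column names call the wild-type libraries Spry4ff and the knockout libraries GCRT_Spry4KO, so an effect of what GCRT names and one of losing Spry4 cannot be told apart. Which surface markers the sort used, and which part of Spry4 was deleted, is not given in the sources used here. No label says that the libraries come from separate animals, so p-values measure only the spread between these libraries. Below, the 4 values of a group are given in the order of replicates 1 to 4. Gene identifiers and positions are those of GENCODE M21 on build GRCm38.

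Promoter sequence is shown for 5 members on which the results turn, 3 that rose with Acta2 (Col6a3, Col4a6 and Lama5) and 2 that did not (Lama2 and Col5a3). Each line is the 250 bases before the RefSeq transcript start, 5′ to 3′ on the strand of the gene, from build GRCm38.p6. The windows are Col6a3 at chr1:90843972-90844221 (minus), Col4a6 at chrX:141474077-141474326 (minus), Lama5 at chr2:180225860-180226109 (minus), Lama2 at chr10:27616943-27617192 (minus) and Col5a3 at chr9:20815068-20815317 (minus). None of the 5 windows overlaps an annotated exon of GENCODE M21, and the Lama2 window lies inside the annotated span of the gene. Capitals mark a CArG box, the binding motif of serum response factor, which is known from genes of smooth muscle.
Col6a3: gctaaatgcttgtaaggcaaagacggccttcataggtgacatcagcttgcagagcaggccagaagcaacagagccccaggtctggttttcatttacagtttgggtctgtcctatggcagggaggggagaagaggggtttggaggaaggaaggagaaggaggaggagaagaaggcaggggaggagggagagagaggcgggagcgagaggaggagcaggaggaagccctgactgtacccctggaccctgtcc
Col4a6: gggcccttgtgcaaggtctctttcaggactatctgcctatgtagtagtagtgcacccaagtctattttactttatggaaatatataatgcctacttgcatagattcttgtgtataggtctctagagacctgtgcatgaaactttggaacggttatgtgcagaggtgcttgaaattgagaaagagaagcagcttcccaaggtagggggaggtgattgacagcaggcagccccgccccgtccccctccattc
Lama5: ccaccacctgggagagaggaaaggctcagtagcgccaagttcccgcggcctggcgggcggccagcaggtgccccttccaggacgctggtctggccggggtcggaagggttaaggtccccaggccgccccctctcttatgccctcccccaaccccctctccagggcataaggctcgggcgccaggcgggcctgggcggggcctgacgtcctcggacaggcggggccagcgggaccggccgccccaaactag
Lama2: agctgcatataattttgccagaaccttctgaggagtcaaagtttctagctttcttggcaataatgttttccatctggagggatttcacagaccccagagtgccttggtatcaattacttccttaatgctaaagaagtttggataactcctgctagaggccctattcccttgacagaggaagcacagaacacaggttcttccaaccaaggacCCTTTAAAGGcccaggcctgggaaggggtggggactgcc
Col5a3: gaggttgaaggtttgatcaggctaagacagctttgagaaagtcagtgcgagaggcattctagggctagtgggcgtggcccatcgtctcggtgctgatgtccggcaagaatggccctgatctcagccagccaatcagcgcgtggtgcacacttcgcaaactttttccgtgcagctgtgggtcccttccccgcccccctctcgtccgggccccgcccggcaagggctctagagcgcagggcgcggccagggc
Only the Lama2 window among these 5 held the box, beginning 39 bases before the start. RefSeq windows were at hand for 50 of the 72 members, 54 windows in all. A CArG box was found on either strand in 2 of them (3.70%), those of Lama2 and Col6a4, against 1.47% of 32851 windows of all genes. The motif TGANTCA, bound by AP-1, was in 1 member window (Col6a1, 1.85%, against 6.75% of all windows), and TATAAA was in 4 (7.41%, against 12.4%). None of the 16 windows of members that rose with Acta2 held any of these 3 motifs, which says only that those letters are not in these windows. The window of Acta2 itself held none of the 3 either, so their absence is no difference from Acta2.

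Library divisors estimated from the low values ran from 23358500 to 36610000 reads. Of the values under 100 reads, 93.0% to 94.3% came out within 0.1 of a whole number of reads. Spry4 was lower in the knockout than in the wild type on vehicle (mean 11.01 ± 3.13 against 22.1 ± 1.66 FPKM, SD, n = 4, two-sided exact permutation p = 0.0286, the smallest that 4 against 4 allows). On inhibitor it was 12.9 ± 4.71 against 21.4 ± 4.89 FPKM (exact p = 0.0571). Over the knockout libraries Spry4 went up with Acta2, though not in strict order. It was 7.28 FPKM in knockout vehicle replicate 3, the lowest of them in Acta2 (538 FPKM). In knockout inhibitor replicate 4, the highest in Acta2 (3937 FPKM), it was 19.3 FPKM. Which cells the Spry4 left in the knockout libraries came from was not tested. Germ cell markers were present throughout, with Zbtb16 at 85.6 to 125 FPKM and Ddx4 at 68.8 to 144 FPKM. Markers of other cells were present as well. The summed level of the 7 contractile markers was 2472 to 7695 FPKM in the wild-type vehicle group, 1152 to 11890 in the wild-type inhibitor group, 1351 to 7079 in the knockout vehicle group and 3326 to 9740 in the knockout inhibitor group. Knockout vehicle replicate 3 stood apart, with summed spermatid markers of 3049 FPKM against at most 155 in the others, 11.5 FPKM of Clu against at most 5.23, and the lowest summed level of the 72 members (674 FPKM, against 771 to 1930). In bulk libraries, fewer cells of a type and less RNA per cell cannot be told apart.

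Acta2 itself ranged from 367 to 5095 FPKM. It was 945, 2890, 3154 and 1986 FPKM in the wild-type vehicle libraries, 571, 367, 5095 and 3035 in the wild-type inhibitor libraries, 1751, 988, 538 and 2910 in the knockout vehicle libraries and 1803, 1345, 1800 and 3937 in the knockout inhibitor libraries. Every group held libraries above and below the median of 1802 FPKM, and the groups overlapped. The knockout inhibitor group had no library below 1345 FPKM. The difference in mean log2 level was -0.66 for knockout against wild type on vehicle, 0.60 on inhibitor, -0.60 for inhibitor against vehicle in the wild type and 0.67 in the knockout (two-sided exact permutation p = 0.314, 0.514, 0.571 and 0.314). Without wild-type inhibitor replicate 2, the difference between genotypes on inhibitor turned to -0.022 and that of inhibitor against vehicle in the wild type to 0.023. Acta2 thus varied more within groups than between them, and a slope on log2 Acta2 was fitted for every gene with 1 mean per group in the model. A slope of 1 means that a gene changed by the same ratio as Acta2.

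Among the tested members, 19 of 49 (38.8%) rose with Acta2 and 6 (12.2%) fell, at a limma adjusted p under 0.05. Over all 12906 genes tested 32.1% rose and 21.7% fell, so the share of rising members was near the background, and that of falling members was lower. The median slope was 0.066 over the members and 0.0064 over all genes. The sizes differed widely among members, from 0.99 for Col6a3 to -0.28 for Col15a1. With each library centred on its median gene, 18 members rose and 10 fell, while 23.8% of all genes rose and 39.8% fell. By role, the rising members were 4 of 8 basement membrane collagens, 2 of 7 fibrillar collagens, 1 of 4 microfibril and network collagens, 1 of 8 collagens of the fibril-associated and transmembrane classes, 2 of 4 laminin alpha chains, 3 of 5 laminin beta and gamma chains, 4 of 6 matrix metalloproteinases and 2 of 3 TIMPs. Neither nidogen, and neither of Fn1 and Sparc, rose.

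**Figure D1:**
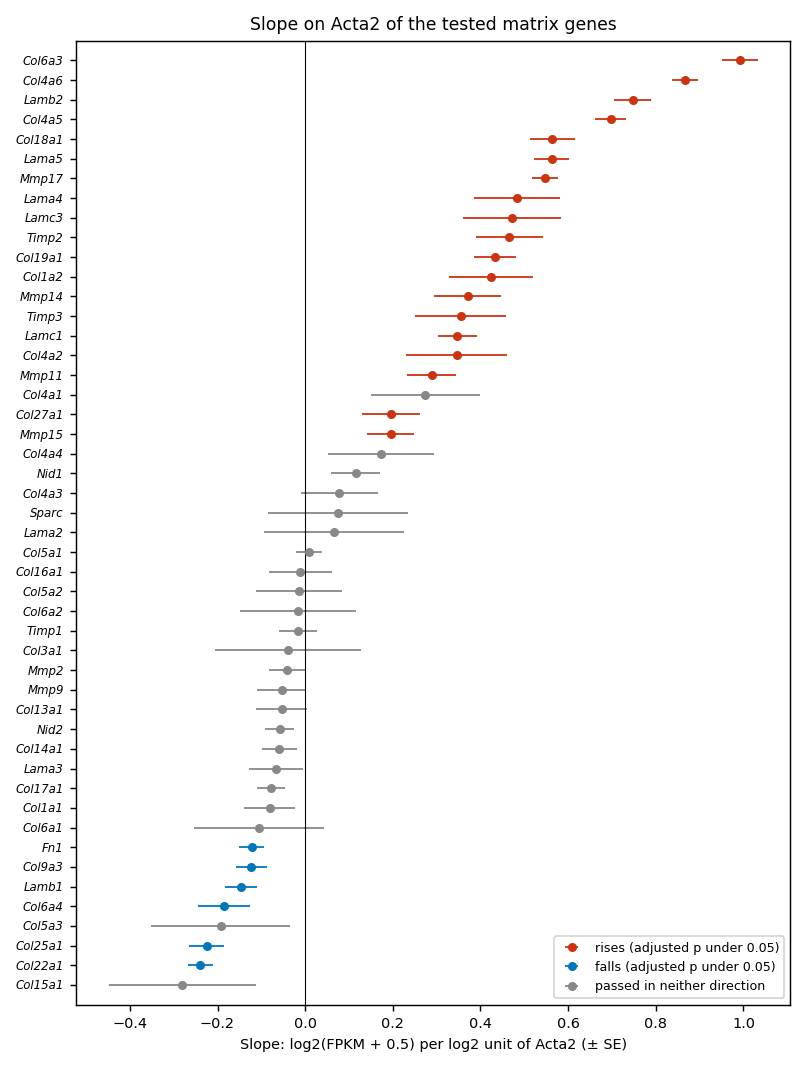
Slope of the tested matrix genes on Acta2, 1 of them not shown, in log2(FPKM + 0.5) per log2 unit of Acta2, with its SE. Red points rose (19), blue points fell (6) and grey points passed in neither direction, and Col6a3, Col4a6, Lamb2 and Col4a5 lie farthest to the right.

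Over the 16 libraries, Pearson r with log2 Acta2 lay between 0.54 and 0.99 for the 19 rising members (Spearman rho 0.51 to 1, permutation p from 1e-05, the smallest possible, to 0.0482 over both measures, 49 members examined). It stayed at 0.55 to 0.99 without the 2 libraries farthest from the median Acta2. Within the wild type r was 0.395 to 0.995 and within the knockout 0.680 to 0.996. The library numbers form 2 sets of 8 (440 to 447 and 448 to 455), each with 2 libraries of every group. In the second set r was 0.565 to 0.995 for the rising members, and in the first 0.090 to 0.996. Col4a2 (0.090 and 0.93), Timp3 (0.17 and 0.96) and Col27a1 (0.31 and 0.75) had the lowest r in the first set. Next came Col1a2 (0.39 and 0.92), Mmp15 (0.42 and 0.57), Lamc3 (0.47 and 0.94) and Mmp14 (0.49 and 0.91). For all of these the relation was weaker in the first set and was not clearly seen in both. A set holds only 8 libraries, and the difference between the sets was not tested. Nearest the threshold on the inside were Col27a1 (limma adjusted p = 0.0236) and Col4a2 (0.0213), and on the outside Col17a1 (0.0541), Col4a1 (0.0759) and Nid1 (0.0956).

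Over the 16 libraries, the type IV collagen chains differed in how closely they followed Acta2. In mammals the 6 type IV chains lie as 3 pairs of genes, each pair head to head, and the chains combine into 3 kinds of trimer. Col4a1 and Col4a2, which form the trimer common to most basement membranes, were the most abundant collagens of the set. Col4a1 (ENSMUSG00000031502, chromosome 8, 11198423 to 11312826, minus strand) was 121, 92.6, 100.5 and 57.7 FPKM in the wild-type vehicle libraries, 78.5, 129.6, 166 and 116 in the wild-type inhibitor libraries, 173, 106, 42.5 and 152 in the knockout vehicle libraries and 119, 51, 100.2 and 134 in the knockout inhibitor libraries. Col4a2 (ENSMUSG00000031503, chromosome 8, 11312805 to 11449287, plus strand) was 140.1, 114, 135 and 78.8 FPKM in the wild-type vehicle libraries, 86.1, 136, 214.03 and 148 in the wild-type inhibitor libraries, 196, 121, 49.3 and 185 in the knockout vehicle libraries and 137, 59.1, 117 and 172 in the knockout inhibitor libraries. Both were lowest in knockout vehicle replicate 3 and highest in knockout vehicle replicates 1 and 4 and wild-type inhibitor replicate 3, and all groups overlapped. Their annotated starts lie 21 bases apart on opposite strands, so their spans overlap there, and the sources used here do not say whether counting used the strand. The Acta2 slope of Col4a2 was 0.35 ± 0.12 (SE, limma adjusted p = 0.0213) and that of Col4a1 0.27 ± 0.12 (limma adjusted p = 0.0759). Col4a1 passed as rising without wild-type inhibitor replicate 2 (0.41) or wild-type vehicle replicate 1 (0.35), and its slope was 0.17 without knockout vehicle replicate 3. The call for Col4a2 was lost when knockout vehicle replicate 3, wild-type inhibitor replicate 1 or wild-type inhibitor replicate 3 was left out.

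Col4a5 and Col4a6, which form a separate network found in smooth muscle and some epithelial basement membranes, followed Acta2 closely. Col4a6 (ENSMUSG00000031273, chromosome X, 141165403 to 141474076, minus strand) was 4.99, 11.5, 15 and 8.21 FPKM in the wild-type vehicle libraries, 2.94, 1.89, 21.6 and 14.6 in the wild-type inhibitor libraries, 7.6, 5.02, 2.19 and 14 in the knockout vehicle libraries and 8.76, 6.51, 7.84 and 16.1 in the knockout inhibitor libraries. Its 5 highest libraries were the 5 highest in Acta2, and they came from all 4 groups. The slope was 0.87 ± 0.03 (SE, limma adjusted p = 3.89e-11), with r 0.993 over all libraries and 0.996 and 0.995 in the sets of library numbers. Col4a5 ranged from 3.48 to 24.7 FPKM with a slope of 0.70 ± 0.035 (limma adjusted p = 9.29e-10). The RefSeq starts of Col4a5 and Col4a6 are 1343 bases apart on the X chromosome. Col4a3 (1.75 to 4.7 FPKM) and Col4a4 (2.34 to 9.03 FPKM) are chains of the trimer known from the glomerulus of the kidney. Both passed in neither direction, with slopes of 0.078 ± 0.088 and 0.17 ± 0.12. For Col4a1, Col4a3 and Col4a4 the relation differed between the sets of library numbers. Their r with Acta2 was -0.018, -0.30 and -0.14 in the first set, and 0.88, 0.78 and 0.89 in the second.

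Ratios within each pair varied less than that of Col4a5 to Col4a1, chains of different pairs. Col4a2 over Col4a1 was 1.05 to 1.37 and Col4a4 over Col4a3 1.26 to 2.02. Col4a6 over Col4a5 was 0.474 to 0.961 and lowest in the library lowest in Acta2. Col4a5 over Col4a1 ran from 0.0308 in wild-type inhibitor replicate 2, the library lowest in Acta2, to 0.161 in wild-type vehicle replicate 3. Of the other basement membrane collagens, Col18a1, whose fragment endostatin inhibits vessel growth, was measured at 26 to 104 FPKM and rose with a slope of 0.56 ± 0.051 (limma adjusted p = 5.3e-07). Col15a1 (ENSMUSG00000028339, chromosome 4, 47208161 to 47313167, plus strand), a related chain of the zone next to vessels and muscle, was 7.3, 3.34, 1.16 and 1.19 FPKM in the wild-type vehicle libraries, 3.97, 8.06, 3.33 and 1.53 in the wild-type inhibitor libraries, 4.77, 3.54, 2.29 and 2.06 in the knockout vehicle libraries and 2.41, 0.392, 1.15 and 1.53 in the knockout inhibitor libraries. Its highest value was in the library lowest in Acta2 and its lowest in knockout inhibitor replicate 2. Its slope of -0.28 ± 0.17 had a wide error (limma adjusted p = 0.171) and ran from -0.37 without wild-type inhibitor replicate 3 to -0.17 without wild-type inhibitor replicate 2.

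**Figure D2:**
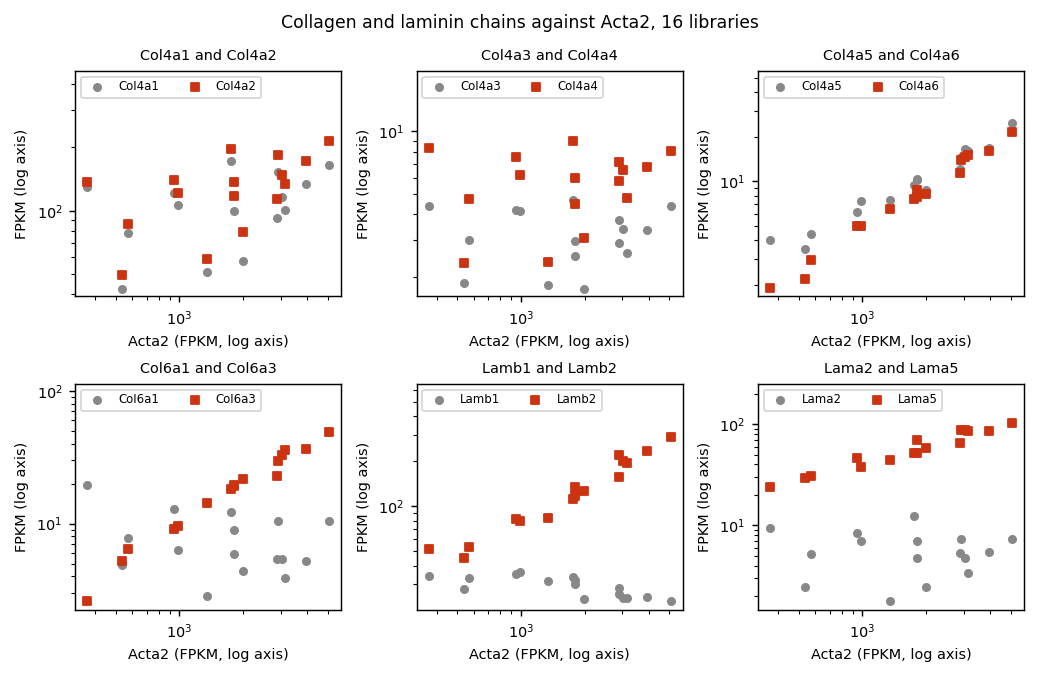
FPKM of paired collagen and laminin chains against Acta2 in the 16 libraries, both axes logarithmic, 1 point per library and chain. Col4a5, Col4a6, Col6a3, Lamb2 and Lama5 climb with Acta2, while Col4a1, Col4a3, Col6a1 and Lama2 scatter and Lamb1 declines slightly (slope -0.15).

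Type VI collagen, a beaded microfibril around cells, is assembled from the alpha1 and alpha2 chains and a longer chain such as alpha3. Col6a3 (ENSMUSG00000048126, chromosome 1, 90765923 to 90843971, minus strand) had the steepest slope of all members. It was 9.11, 22.9, 36.2 and 21.5 FPKM in the wild-type vehicle libraries, 6.45, 2.61, 48.7 and 32.6 in the wild-type inhibitor libraries, 18.2, 9.56, 5.25 and 29.8 in the knockout vehicle libraries and 19.5, 14.4, 19.3 and 36.5 in the knockout inhibitor libraries. The libraries stood in the same order by Col6a3 as by Acta2 (rho 1), from 2.61 FPKM in wild-type inhibitor replicate 2 to 48.7 in wild-type inhibitor replicate 3, so 1 group held both ends. The slope was 0.99 ± 0.041 (SE, limma adjusted p = 1.51e-10). Col6a1 (ENSMUSG00000001119, chromosome 10, 76708792 to 76726168, minus strand) was 12.9, 5.39, 3.9 and 4.4 FPKM in the wild-type vehicle libraries, 7.78, 19.4, 10.5 and 5.45 in the wild-type inhibitor libraries, 12.2, 6.37, 4.87 and 10.4 in the knockout vehicle libraries and 8.99, 2.84, 5.94 and 5.25 in the knockout inhibitor libraries. Here the library lowest in Acta2 was the highest, at 19.4 FPKM, and the slope was -0.11 ± 0.15 (limma adjusted p = 0.564). Without that library the slope of Col6a1 turned to 0.054. Col6a3 over Col6a1 ran from 0.134 to 9.28 across libraries, whereas Col6a2 over Col6a1 stayed between 0.562 and 0.901. Col6a4, an alternative to alpha3, was at 1.11 to 2.98 FPKM and fell with Acta2 (-0.19 ± 0.059, limma adjusted p = 0.0158). Over the 16 libraries its Spearman rho with Acta2 was -0.46 (permutation p = 0.0737). Its r was -0.19 in the first set of library numbers and -0.74 in the second.

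The fibrillar collagens were low beside Col4a1 and Col4a2, and Col5a1, Col1a2 and Col1a1 had higher median levels than the other 4 type IV chains. Col5a1 (ENSMUSG00000026837, chromosome 2, 27886425 to 28039514, plus strand), a type V chain that sets the width of fibrils, was 30.4, 24.5, 28.5 and 29.7 FPKM in the wild-type vehicle libraries, 25, 26.2, 23.7 and 26.5 in the wild-type inhibitor libraries, 34.2, 28.4, 29 and 32.7 in the knockout vehicle libraries and 29.98, 26.6, 31.6 and 33 in the knockout inhibitor libraries. It was the steadiest member, with 1.44-fold between its highest and lowest library, and its Acta2 slope was 0.0096 ± 0.03. Col1a2 (ENSMUSG00000029661, chromosome 6, 4504814 to 4541544, plus strand), a chain of type I collagen, was 16.9, 18.3, 22.4 and 13.3 FPKM in the wild-type vehicle libraries, 11.7, 17, 34.3 and 23.8 in the wild-type inhibitor libraries, 32.7, 17.4, 8.17 and 29.7 in the knockout vehicle libraries and 22.2, 10.2, 23 and 29.2 in the knockout inhibitor libraries. It was lowest in knockout vehicle replicate 3 and highest in wild-type inhibitor replicate 3, and it rose with Acta2 (0.42 ± 0.096, SE, limma adjusted p = 0.0021). Col1a1, its partner in the type I trimer, was measured at 8.76 to 17.6 FPKM with a slope of -0.081 ± 0.058 (limma adjusted p = 0.247), and Col1a2 over Col1a1 ran from 0.540 to 3.36. Col27a1 (0.647 to 1.9 FPKM) also rose (0.20 ± 0.067, limma adjusted p = 0.0236), a call that was lost without knockout vehicle replicate 3, wild-type inhibitor replicate 1 or wild-type inhibitor replicate 3. Col3a1 (1.13 to 11.9 FPKM), Col5a2 (0.77 to 3.26) and Col5a3 (2.43 to 15.2) passed in neither direction.

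Fibril-associated and transmembrane collagens were low, and 3 of the 6 falling members were among them. Col22a1 (ENSMUSG00000079022, chromosome 15, 71795795 to 72034227, minus strand), known from the junctions of muscle and tendon, was 7.35, 4.86, 4.86 and 5.67 FPKM in the wild-type vehicle libraries, 8.04, 6.62, 3.93 and 5.13 in the wild-type inhibitor libraries, 5.72, 6.54, 8.28 and 4.97 in the knockout vehicle libraries and 6.78, 7.32, 6.71 and 5.15 in the knockout inhibitor libraries. Col25a1 (ENSMUSG00000058897, chromosome 3, 130131501 to 130599877, plus strand), a transmembrane collagen of neurons, was 1.42, 0.877, 0.802 and 0.921 FPKM in the wild-type vehicle libraries, 1.66, 1.62, 0.769 and 0.821 in the wild-type inhibitor libraries, 1.55, 1.55, 1.67 and 1.34 in the knockout vehicle libraries and 1.16, 1.53, 1.03 and 0.694 in the knockout inhibitor libraries. In both genes the highest values lay in libraries low in Acta2, and the groups overlapped. The slopes were -0.24 ± 0.029 and -0.22 ± 0.039 (SE, limma adjusted p = 9.63e-06 and 0.000274). Col9a3 fell as well (-0.12 ± 0.036, limma adjusted p = 0.0104), a call lost without wild-type inhibitor replicate 3. Col19a1, which lies in basement membrane zones of muscle, was the exception in its class and rose (0.416 to 2.96 FPKM, slope 0.43 ± 0.048, limma adjusted p = 4.22e-06).

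Laminin chains also differed among themselves. Lama5 (ENSMUSG00000015647, chromosome 2, 180176373 to 180225859, minus strand), the most abundant laminin alpha chain and part of laminin-511 and laminin-521, was 46.6, 65.4, 84.9 and 58.7 FPKM in the wild-type vehicle libraries, 30.7, 23.8, 102 and 87.4 in the wild-type inhibitor libraries, 52.1, 37.8, 29.4 and 87.8 in the knockout vehicle libraries and 51.4, 44.1, 70.3 and 85.7 in the knockout inhibitor libraries. Lamb2 (ENSMUSG00000052911, chromosome 9, 108479736 to 108490530, plus strand), the beta chain of laminin-521, was 82.2, 157, 196 and 127 FPKM in the wild-type vehicle libraries, 53, 51.8, 289 and 201 in the wild-type inhibitor libraries, 112, 79.6, 44.8 and 220.02 in the knockout vehicle libraries and 117, 84, 135 and 234 in the knockout inhibitor libraries. Both were highest in wild-type inhibitor replicate 3, the library highest in Acta2, and low in wild-type inhibitor replicates 1 and 2 and knockout vehicle replicate 3. The slopes were 0.56 ± 0.039 for Lama5 and 0.75 ± 0.042 for Lamb2 (SE, limma adjusted p = 3.2e-08 and 3.48e-09). Lamc1 (ENSMUSG00000026478, chromosome 1, 153218922 to 153332786, minus strand), the gamma chain of most laminins, was 46.1, 50.5, 61.7 and 44.4 FPKM in the wild-type vehicle libraries, 34.3, 38.7, 88.1 and 60.7 in the wild-type inhibitor libraries, 59.97, 44.3, 29.2 and 70.2 in the knockout vehicle libraries and 51.7, 38.4, 53.5 and 62.2 in the knockout inhibitor libraries. It rose less steeply (0.35 ± 0.045, limma adjusted p = 1.75e-05).

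The other beta chain went the opposite way. Lamb1 was 23.1 to 36.3 FPKM and fell with Acta2 (-0.15 ± 0.036, SE, limma adjusted p = 0.00411), so that Lamb2 over Lamb1 ran from 1.51 in the library lowest in Acta2 to 12.5 in the highest. The r of Lamb1 with Acta2 was -0.91 within the wild type and -0.42 within the knockout. Lama4 (1.57 to 9.82 FPKM, slope 0.48 ± 0.098) and Lamc3 (7.27 to 41.4 FPKM, slope 0.47 ± 0.11) rose (limma adjusted p = 0.000933 and 0.00287). Lama2 (ENSMUSG00000019899, chromosome 10, 26980036 to 27619758, minus strand), the alpha chain of muscle laminin, was 8.41, 5.28, 3.41 and 2.43 FPKM in the wild-type vehicle libraries, 5.21, 9.49, 7.33 and 4.75 in the wild-type inhibitor libraries, 12.4, 6.98, 2.47 and 7.34 in the knockout vehicle libraries and 7.03, 1.8, 4.71 and 5.4 in the knockout inhibitor libraries. It passed in neither direction (0.066 ± 0.16, limma adjusted p = 0.739, -0.064 without knockout vehicle replicate 3), and Lama5 over Lama2 was 2.50 in the library lowest in Acta2 and 24.9 in wild-type vehicle replicate 3. Lama3, a laminin alpha chain of epithelia, was at 2.92 to 5.63 FPKM with no call, and the beta chain Lamb3 reached at most 0.107 FPKM.

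With all 16 libraries, neither the nidogens nor fibronectin or Sparc passed as rising with Acta2. Nid1 (ENSMUSG00000005397, chromosome 13, 13437551 to 13512269, plus strand), which links laminin to collagen IV, was 55.6, 42.9, 55.2 and 52.5 FPKM in the wild-type vehicle libraries, 42.7, 53.6, 64.1 and 43.9 in the wild-type inhibitor libraries, 67.2, 56.7, 44.1 and 79.8 in the knockout vehicle libraries and 55.1, 37.9, 44 and 56.3 in the knockout inhibitor libraries. Nid2 (ENSMUSG00000021806, chromosome 14, 19751265 to 19811787, plus strand), its relative, was 34.7, 29.7, 39.7 and 33.3 FPKM in the wild-type vehicle libraries, 29.7, 34, 25.1 and 24.9 in the wild-type inhibitor libraries, 34.8, 40.6, 33.7 and 38.7 in the knockout vehicle libraries and 32, 34, 34 and 33.1 in the knockout inhibitor libraries. Nid1 spanned 2.1-fold and Nid2 1.63-fold over all libraries, with slopes of 0.12 ± 0.056 and -0.058 ± 0.033 (limma adjusted p = 0.0956 and 0.149). Nid1 passed as rising without wild-type inhibitor replicate 2 (0.18) or replicate 4 (0.15), and Nid2 passed as falling without knockout vehicle replicate 3.

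Fn1 (ENSMUSG00000026193, chromosome 1, 71585520 to 71653200, minus strand), fibronectin, was 32.1, 26.4, 27.9 and 30.3 FPKM in the wild-type vehicle libraries, 32.9, 30.8, 21.2 and 27.2 in the wild-type inhibitor libraries, 26.9, 32.6, 31.4 and 30 in the knockout vehicle libraries and 26.5, 32.7, 31.8 and 26.2 in the knockout inhibitor libraries. It was lowest in the library highest in Acta2 and fell (-0.12 ± 0.028, SE, limma adjusted p = 0.00219). Sparc (ENSMUSG00000018593, chromosome 11, 55394500 to 55423183, minus strand), a secreted collagen-binding protein and the most abundant member of the set, was 217.5, 110.2, 97.6 and 69.3 FPKM in the wild-type vehicle libraries, 132, 234, 188 and 134 in the wild-type inhibitor libraries, 322, 129, 85.6 and 193 in the knockout vehicle libraries and 196, 53.5, 162 and 166 in the knockout inhibitor libraries. Knockout vehicle replicate 1 was highest and knockout inhibitor replicate 2 lowest, and libraries with much Acta2 were neither high nor low (slope 0.075 ± 0.16, limma adjusted p = 0.707, -0.020 without knockout vehicle replicate 3).

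Of the proteases, the tested membrane-bound ones rose. Mmp17 (ENSMUSG00000029436, chromosome 5, 129584169 to 129611099, plus strand), a metalloproteinase held to the membrane by a lipid anchor, was 7.42, 12, 15.3 and 11.3 FPKM in the wild-type vehicle libraries, 5.57, 5.66, 23.6 and 15.9 in the wild-type inhibitor libraries, 11.3, 8.49, 6.17 and 15.9 in the knockout vehicle libraries and 11.3, 9.26, 11.8 and 20.2 in the knockout inhibitor libraries. Mmp14 (ENSMUSG00000000957, chromosome 14, 54431612 to 54445364, plus strand), the membrane metalloproteinase that cuts collagen and activates Mmp2, was 8.51, 8.88, 8.86 and 6.12 FPKM in the wild-type vehicle libraries, 4.9, 6.91, 16 and 8.64 in the wild-type inhibitor libraries, 8.67, 7.3, 3.76 and 12.5 in the knockout vehicle libraries and 7.52, 5.2, 8.94 and 12 in the knockout inhibitor libraries. Both peaked in wild-type inhibitor replicate 3, with slopes of 0.55 ± 0.03 and 0.37 ± 0.076 (SE, limma adjusted p = 2.17e-09 and 0.00101). Mmp11 (3.61 to 9.81 FPKM, slope 0.29 ± 0.057) and the membrane-bound Mmp15 (0.457 to 1.78 FPKM, slope 0.19 ± 0.053) rose as well (limma adjusted p = 0.000764 and 0.00686), and the call for Mmp15 was lost without wild-type inhibitor replicate 3. The gelatinases, which cut denatured collagen and type IV collagen, passed in neither direction. Mmp2 was 3.63 to 6.04 FPKM. Mmp9 (ENSMUSG00000017737, chromosome 2, 164940780 to 164955850, plus strand) was 5.68, 5.83, 8.1 and 5.98 FPKM in the wild-type vehicle libraries, 6.49, 5.14, 4.21 and 4.18 in the wild-type inhibitor libraries, 4.53, 6.32, 6.23 and 5.99 in the knockout vehicle libraries and 5.88, 8.41, 6.29 and 9.01 in the knockout inhibitor libraries.

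Timp2 and Timp3 were more abundant than any protease of the set. Timp3 (ENSMUSG00000020044, chromosome 10, 86300372 to 86349506, plus strand), which binds to the matrix, was 117, 108, 103 and 67.4 FPKM in the wild-type vehicle libraries, 74.9, 108, 198 and 129 in the wild-type inhibitor libraries, 144, 90.6, 37.7 and 129 in the knockout vehicle libraries and 107, 53.7, 89.2 and 135 in the knockout inhibitor libraries. Timp2 (ENSMUSG00000017466, chromosome 11, 118301069 to 118355740, minus strand), which takes part in the activation of Mmp2 by Mmp14, was 40.04, 49.8, 48.3 and 32.8 FPKM in the wild-type vehicle libraries, 25.3, 33.3, 85.1 and 61.7 in the wild-type inhibitor libraries, 60.2, 40.4, 18.2 and 60.5 in the knockout vehicle libraries and 48, 25.6, 42.7 and 64.2 in the knockout inhibitor libraries. Both were lowest in knockout vehicle replicate 3 and highest in wild-type inhibitor replicate 3. They rose with slopes of 0.35 ± 0.10 and 0.47 ± 0.076 (SE, limma adjusted p = 0.0107 and 0.000158). Timp1, an inducible inhibitor, was low at 1.64 to 3.65 FPKM with a slope of -0.017 ± 0.043, and Timp4 reached at most 0.213 FPKM.

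**Figure D3:**
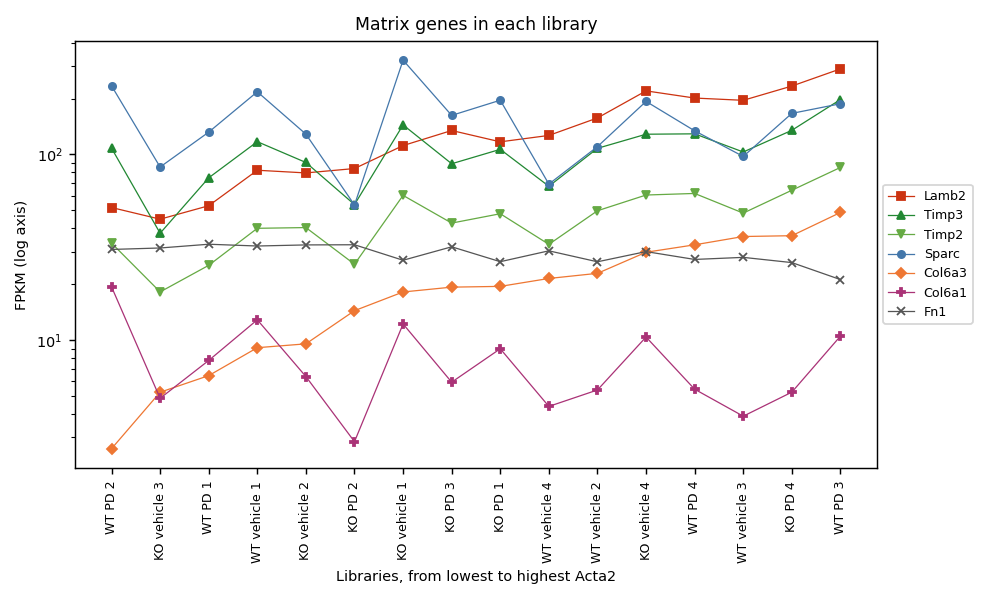
FPKM of 7 matrix genes on a logarithmic axis in the 16 libraries, ordered from lowest to highest Acta2. Lamb2 and Col6a3 climb from left to right, Fn1 stays between 21.2 and 32.9 FPKM, and Sparc, Timp3, Timp2 and Col6a1 share a jagged course with peaks at knockout vehicle replicate 1 and dips at knockout inhibitor replicate 2.

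Part of the members that did not follow Acta2, and some that did, shared a course noticed only after the values had been seen. Pdgfrb, a receptor of pericytes and other mesenchymal cells, was taken as a second axis for that reason, and what follows is a description without a test. With Acta2 and Pdgfrb fitted together, 15 of 49 members (30.6%) had a Pdgfrb slope of at least 0.5, against 1.74% of the 12905 genes fitted, and none had a slope of -0.5 or below (0.682% of all genes). The 15 were 11 of the 24 members that passed in neither direction on Acta2, 4 of the 19 rising and 0 of the 6 falling. The steepest were Col3a1 (1.04 ± 0.10, SE), Lama2 (1.03 ± 0.054), Sparc (1.01 ± 0.087), Col15a1 (0.97 ± 0.14), Col5a3 (0.96 ± 0.11) and Col6a1 (0.89 ± 0.11). Col4a1 (0.80 ± 0.048), Col4a4 (0.77 ± 0.06), Col4a2 (0.74 ± 0.055) and Col4a3 (0.53 ± 0.065) were among the 15. Col6a3 (-0.094 ± 0.069), Col4a6 (0.057 ± 0.051), Col4a5 (0.12 ± 0.053), Lama5 (0.025 ± 0.07) and Mmp17 (0.032 ± 0.052) were not. So 4 of the 6 type IV chains were past that slope, and Col4a5 and Col4a6 were not. In the same fit Col4a2 and Col4a1 also had slopes on Acta2, of 0.20 ± 0.033 and 0.12 ± 0.029, below those of Col4a5 (0.67 ± 0.032) and Col4a6 (0.86 ± 0.031).

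Some members carried both slopes. Timp3 had 0.23 ± 0.028 on Acta2 and 0.66 ± 0.046 on Pdgfrb, Lamc3 0.34 ± 0.043 and 0.69 ± 0.071, and Col1a2 0.31 ± 0.031 and 0.61 ± 0.051. Because Pdgfrb was chosen from these same values, the calls of this fit only describe it and are no test of the members. All 19 rising and 6 falling members kept their calls on Acta2 in this fit. Col4a1 joined those that rose, and Col6a1, Col5a3, Lama2, Col6a2, Col5a2, Col3a1 and Col15a1 joined those that fell, which made 20 and 13 (32.5% and 19.3% of all genes). The slope of Lama2 on Acta2 turned from 0.066 to -0.13 ± 0.033.

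Pdgfrb ran from 31.7 FPKM in knockout vehicle replicate 3 to 159 in knockout vehicle replicate 1. In a list of 10 genes of pericytes and vessel-wall muscle, written after the values were seen, Rgs5 (86.1 to 490 FPKM, Pdgfrb slope 1.05), Abcc9 (1.54), Kcnj8 (1.47), Higd1b (1.01) and Ndufa4l2 (1.0) were steep on Pdgfrb, and Mcam (0.019) and Cspg4 (0.39) less so. On Acta2, 3 of the 10 rose. The list summed to 614 to 1032 FPKM in the wild-type vehicle group, 751 to 1356 in the wild-type inhibitor group, 466 to 1364 in the knockout vehicle group and 515 to 1025 in the knockout inhibitor group, and no gene of it was at 0. The part of these cells in the members' levels was not tested.

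**Figure D4:**
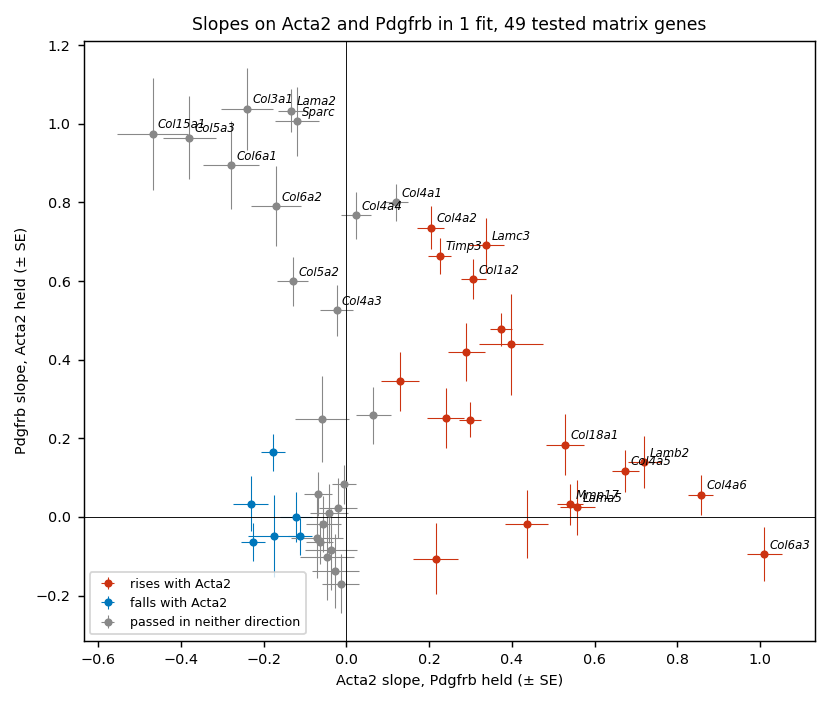
Slopes of the 49 tested members on Acta2 (horizontal, in log2 units per log2 unit, ± SE) and on Pdgfrb (vertical), fitted together. Col6a3, Col4a6, Lamb2, Col4a5, Lama5 and Mmp17 lie to the right near a Pdgfrb slope of 0, Col3a1, Lama2, Sparc and Col15a1 lie high with Acta2 slopes at or below -0.12, and Timp3, Lamc3 and Col1a2 lie between.

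Other marker lists moved along Acta2 to different degrees, where 32.1% of all genes rose and 21.7% fell. All 6 tested contractile genes beside Acta2 rose, and using their mean in place of Acta2 left the 19 and 6 calls as they were. Leydig markers Lhcgr and Nr5a1 rose, both of 2 tested (3 of 8 in the table, summed 4.32 to 31.0 FPKM over the libraries). Undifferentiated spermatogonia markers fell in 6 of 10 and rose in none (summed 412 to 649 FPKM). Of 6 Sertoli markers tested, Gata4 rose and Wt1 fell, of 7 endothelial ones only Esam rose, of 3 fibroblast ones Tcf21 rose and Pdgfra fell, and the fibroblast gene Dcn reached at most 0.50 FPKM. Of 2 macrophage markers tested 1 rose, of 9 spermatid markers 1 fell, none of 5 markers of differentiating spermatogonia passed, and no erythrocyte marker reached the level for testing. In a fit with Acta2 and the mean endothelial and mean Sertoli levels together, 23 members rose and 6 fell with Acta2 (30.8% and 23.7% of all genes). No member passed on the endothelial axis (0% of all genes either way) or on the Sertoli axis (0.00775% of all genes rising, 0% falling). Almost no gene passed on either axis, so this does not set the members apart from other genes. Both axes rest mostly on low genes. Apart from Esam (median 27.0 FPKM), the tested endothelial markers had medians of 1.06 to 2.22 FPKM. Apart from Ctsl (23.7 FPKM), the tested Sertoli markers had medians of 0.80 to 4.56 FPKM. The means also include Esam and Gata4, which rose with Acta2. The Acta2 count in that fit was 12 without knockout vehicle replicate 3 and 28 without knockout inhibitor replicate 3.

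Genes that work with the members were taken from a list of 108 receptors, collagen-processing enzymes, other matrix proteins and other proteases. Of these, 104 were in the table and 84 were tested, and 50 rose and 3 fell with Acta2, beside 32.1% and 21.7% of all genes. Integrins, the cell-surface receptors of matrix, rose in 11 of 13 and fell in 1, other receptors rose in 5 of 8, enzymes of collagen synthesis and crosslinking in 17 of 24, other matrix proteins in 10 of 23 with 2 falling, and other proteases and inhibitors in 7 of 16. The list medians of the slope ran from 0.076 for the proteases to 0.32 for the integrins, beside 0.0064 over all genes. Itga8, the alpha chain of a receptor of nephronectin and fibronectin (5.72 to 56.6 FPKM, slope 0.82 ± 0.036), and Ntn4, a laminin-related netrin (14.6 to 127 FPKM, slope 0.81 ± 0.046), had the smallest p among the rising (limma adjusted p = 2.8e-10 and 3.93e-09). Fras1, a basement membrane protein (slope -0.26 ± 0.043), and Itga6, a laminin receptor chain present on spermatogonia (11.4 to 17.8 FPKM, slope -0.13 ± 0.025), had the smallest p among the falling (limma adjusted p = 0.000215 and 0.00066).

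Between the 4 groups, no member passed an adjusted p of 0.05 in any of 7 comparisons, and neither did any other of the 12907 genes tested (0% called in each, by limma). A limma-voom fit on the reads recovered from the FPKM (12467 genes) also called 0% in each. The smallest limma adjusted p of a member was 0.968. The comparisons share groups, so their counts are not independent of each other. At an unadjusted p under 0.05, 5 of 49 members passed for knockout against wild type on vehicle (1.94% of all genes), 7 on inhibitor (4.69%), 1 for inhibitor against vehicle in the wild type (0.891%) and 1 in the knockout (2.96%). The interaction of genotype and inhibitor gave 4 (1.71%), the genotypes over both treatments 7 (4.35%) and the treatments over both genotypes 3 (1.84%). The median difference over the tested members lay between -0.0065 and 0.11 log2 units, and over all genes between -0.015 and 0.0091.

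Timp1 (ENSMUSG00000001131, chromosome X, 20870166 to 20874735, plus strand) was the member whose groups were most often apart. It was 2.21, 2.31, 2.41 and 2.61 FPKM in the wild-type vehicle libraries, 1.97, 2.11, 1.64 and 1.95 in the wild-type inhibitor libraries, 1.86, 1.78, 1.89 and 1.92 in the knockout vehicle libraries and 2.18, 2.2, 3.65 and 2.8 in the knockout inhibitor libraries. On vehicle every knockout library was below every wild-type library, and on inhibitor every knockout library was above every wild-type library. The exons of Timp1 add up to only 888 bases, so values this low rest on few reads in each library. The means were 1.86 ± 0.0623 against 2.39 ± 0.168 FPKM on vehicle and 2.71 ± 0.689 against 1.92 ± 0.198 on inhibitor (SD, n = 4). The log2 differences were -0.29 ± 0.13 and 0.39 ± 0.13 (SE), and 0.42 ± 0.13 for inhibitor against vehicle in the knockout. The interaction was 0.67 ± 0.18 (95% interval 0.29 to 1.05), with a limma adjusted p = 0.999. None of these differences passed adjustment over all genes.

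Groups that did not overlap were seen in 2 members for knockout against wild type on vehicle (Timp1 and Col16a1, 1.46% of all genes), in 2 on inhibitor (Timp1 and Col5a1, 2.28%), and in Timp1 alone for inhibitor against vehicle in the wild type (0.659%) and in the knockout (1.70%). Col16a1 (ENSMUSG00000040690, chromosome 4, 130047840 to 130099283, plus strand), a fibril-associated collagen, was 1.92, 1.12, 1.29 and 1.03 FPKM in the wild-type vehicle libraries, 1.56, 2.27, 2.68 and 1.46 in the wild-type inhibitor libraries, 2.81, 2.1, 3.03 and 2.51 in the knockout vehicle libraries and 2.22, 1.23, 2.59 and 1.91 in the knockout inhibitor libraries. On vehicle the knockout mean was 2.61 ± 0.403 and the wild-type mean 1.34 ± 0.4 FPKM (SD, n = 4), a log2 difference of 0.77 ± 0.21 (95% interval 0.33 to 1.22, limma unadjusted p = 0.00212, adjusted p = 0.9998). On inhibitor the means were 1.99 ± 0.575 and 1.99 ± 0.582 FPKM and the groups overlapped. Col5a1 was 30.3 ± 2.76 in the knockout and 25.3 ± 1.26 FPKM in the wild type on inhibitor, a log2 difference of 0.25 ± 0.088 (limma adjusted p = 0.988).

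Col13a1 (ENSMUSG00000058806, chromosome 10, 61838236 to 61979108, minus strand), a transmembrane collagen of cell-matrix contacts, was 9.46, 5.6, 9.57 and 10.6 FPKM in the wild-type vehicle libraries, 7.54, 7.34, 6.44 and 5.6 in the wild-type inhibitor libraries, 10.1, 11, 12.6 and 13.3 in the knockout vehicle libraries and 8.5, 9.97, 7.4 and 11.1 in the knockout inhibitor libraries. The highest 2 values were in the knockout vehicle group, and neighbouring groups overlapped. Its log2 difference between knockout and wild type was 0.42 ± 0.18 on vehicle, 0.42 ± 0.18 on inhibitor and 0.42 ± 0.12 over both (limma unadjusted p = 0.00403, adjusted p = 0.998). Mmp9 differed by 0.52 ± 0.17 between knockout and wild type on inhibitor, with means of 7.4 ± 1.55 and 5.0 ± 1.08 FPKM, and by -0.14 ± 0.17 on vehicle (limma adjusted p = 0.988 and 0.9998). Nid2 was lower on inhibitor in the wild type, at 28.4 ± 4.33 against 34.3 ± 4.15 FPKM (log2 difference -0.27 ± 0.11, limma adjusted p = 0.9999), and over both genotypes the difference was -0.21 ± 0.075.

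**Figure D5:**
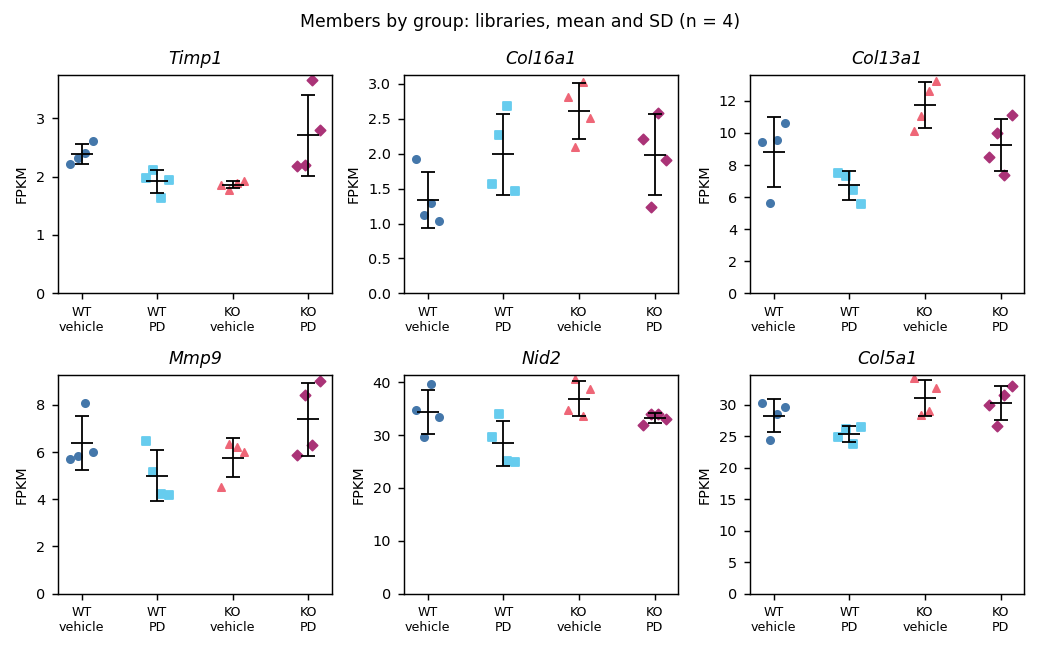
FPKM of the members with the smallest p or with groups that did not overlap, each on an axis from 0, 1 point per library, with the mean and SD of each group (n = 4). Timp1 is lower in the knockout on vehicle and higher on inhibitor, Col16a1 is apart on vehicle only, and in the other panels most groups overlap.

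The members steepest on Acta2 did not pass between groups. Col6a3 differed by -0.62 ± 0.77 log2 units between knockout and wild type on vehicle and by 0.66 ± 0.77 on inhibitor, and Lamb2 by -0.46 ± 0.58 and 0.24 ± 0.58 (limma adjusted p = 0.9998 in each). The 95% interval for Col6a3 on vehicle was wide, -2.26 to 1.02. Col3a1 had the largest difference of any member on vehicle (1.18 ± 0.48, 95% interval 0.15 to 2.22, limma adjusted p = 0.9998), with means of 6.46 ± 3.92 in the knockout and 2.36 ± 1.1 FPKM in the wild type. In the knockout and wild-type libraries on inhibitor its means were 3.98 ± 2.16 and 5.18 ± 3.08 FPKM.

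The 23 members below the testing level included the cartilage collagens Col2a1 (0.419 to 1.21 FPKM), Col11a1 and Col9a2, the laminin chains Lama1 (0.539 to 1.05 FPKM) and Lamb3, the metalloproteinases Mmp16, Mmp19, Mmp23, Mmp25 and Mmp28, and Timp4. The highest value among them was 1.94 FPKM, of Col20a1. All 72 members together made up 0.292% to 0.755% of the summed FPKM of a library.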

How the data were processed

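The deposited table holds 1 FPKM value per gene and library, computed by the authors, per the labels. Per the submitters' processing notes, the tools were STAR 2.7.10a, FastQC and edgeR 4.0.14 and the builds mm10 and GRCm39, with no role stated. What counted the reads, and with which gene lengths and scaling, is not given in the sources used here. Each of the 16 columns was matched to a library by the column name in the labels. Gene identifiers and positions came from GENCODE M21 (GRCm38), which matched all 72 members, and promoter windows from RefSeq (GRCm38.p6).

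Genes that reached 1 FPKM in 4 or more libraries were fitted on the log2(FPKM + 0.5) scale with 1 mean per group over all 16 libraries (limma 3.58.1 with a mean-variance trend, R 4.3.3). P-values are two-sided and adjusted by Benjamini-Hochberg over all genes tested, with a threshold of 0.05. Fold changes on this scale understate those of low genes. Slopes added log2 Acta2 to the group means, with Acta2 left out of the genes tested. Acta2 and Spry4 were compared by exact permutation, and correlations used 100000 permutations (scipy). The fits were tested on simulated data.

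Reads were recovered from the low FPKM values by the divisor that makes them whole. Depth and any scaling factor in these divisors cannot be told apart. In wild-type inhibitor replicate 3, highest in Acta2, listed genes held 36304228 reads against a divisor of 32255500, so divisors are not plain depth. Summed FPKM was highest there (276968) and lowest in wild-type inhibitor replicate 1 (206108). Knockout vehicle replicate 3, also low in Acta2, had 230646. Apart from centring on the median gene, the part of this in the slopes was not tested. The members and all gene lists were chosen with earlier results of these data known. Values in every library are given for the 2 most abundant tested members of each role, the 3 steepest slopes in each direction, and the member of smallest p in each comparison; the 2 related genes of smallest p in each direction are named. Other members are given by range, 1 tested member is counted but not reported here, and those named beyond this rule were chosen after their values were seen. Alternatives were pseudocounts, filters, centring, a replicate block, library-number sets, other axes and leaving out each library.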

Additional observations from a re-analysis of the deposited data

Results flagged for a closer look

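Timp1 differed between inhibitor and vehicle in opposite directions in the genotypes. Every inhibitor library was below every vehicle library in the wild type and above every one in the knockout, and likewise knockout and wild type changed order between treatments. The interaction was 0.67 log2 units (limma unadjusted p = 0.00191, adjusted p = 0.999), so the difference did not pass over all genes tested. Timp1 is short (888 bases of exons) and low, so its values rest on few reads.

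In 4 of 104 sets of 4 libraries examined (26 members in 4 groups), 1 library lay far from the other 3 by Dixon's criterion on the log2 scale, and chance alone marks about 1 in 20. Mmp14 was 6.12 FPKM in wild-type vehicle replicate 4, below 8.51 to 8.88 in the others. Mmp9 was 8.10 FPKM in wild-type vehicle replicate 3, above 5.68 to 5.98, and 4.53 FPKM in knockout vehicle replicate 1, below 5.99 to 6.32. Sparc was 53.5 FPKM in knockout inhibitor replicate 2, below 162 to 196, and Pdgfrb was 34.5 FPKM in the same library, against 90.9 to 104 in the others of its group.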

How the results depend on the processing

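In the 7 group comparisons, 0 members passed under every alternative run, including leaving out each library (0 to 0). The 19 members rising with Acta2 were 16 to 21 when 1 library was left out, and the 6 falling were 5 to 7. With 1 library left out, the slopes of Col6a1 (-0.20 to 0.054), Lama2 (-0.064 to 0.20) and Sparc (-0.020 to 0.21), none of them called, changed sign. With FPKM of at least 5 required, 3 members fell, the others that fell being below that level, with each library centred on its median 10 fell, and with Pdgfrb as a second slope 13 fell and the slope of Lama2 turned to -0.13; why the counts moved under the last 2 was not tested. In the fit with endothelial and Sertoli means, 12 to 28 members rose and 2 to 6 fell with Acta2 when 1 library was left out (2 without knockout vehicle replicate 3, 3 without wild-type inhibitor replicate 1 or knockout inhibitor replicate 3). The Acta2 difference between groups ran from -1.06 to -0.25 (knockout against wild type, vehicle), -0.022 to 1.24 (inhibitor), -1.24 to 0.023 (inhibitor against vehicle, wild type) and 0.25 to 1.06 (knockout). Spry4 stayed lower in the knockout, at -1.16 to -0.84 on vehicle and -0.96 to -0.57 on inhibitor; 3 against 4 libraries cannot go below an exact p of 0.0571.

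Replicate numbers did not pair the libraries: deviations of same-numbered libraries had mean r of 0.12, 0.075, -0.086 and 0.22, the lowest r of every number was negative, and 5 of 16 libraries correlated best with their own number. With a replicate block, 0 members passed in the group comparisons, 19 rose with Acta2 (18 of the 19, with Col4a1 in place of Mmp15) and 5 fell (without Lamb1). Nid1, Col4a1, Col4a3 and Col4a4 joined the rising members in the fit with endothelial and Sertoli means. With the library-number set as a term, Mmp15 was again lost and Col4a1 gained. Pseudocounts of 0.1 and 1, limma without a trend, other contractile genes as the axis, no group terms and voom kept all 19 and 6 calls. Without the filter on low values, Mmp28 and Col8a2 joined the rising members and Col2a1, Mmp25 and Col9a2 the falling. Depth cannot be separated from scaling in FPKM. The short gene Timp1 and the members with the lowest FPKM rest on few reads. Long members just under 1 FPKM rest on more.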
